A study of Mus musculus with 20 samples.

Results

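The genes described here encode enzymes of branched-chain amino acid breakdown and were taken as the rows of the deposited count tables named Bcat2, Bckdha, Bckdhb, Dbt, Dld, Ppm1k, Hsd17b10, Aldh6a1, Acadsb or Mccc1, which are 10 of 56805 annotated genes. Their RNA was counted in white adipose tissue of 20 mice, 5 in each of 4 groups. The groups were a high-fat diet with a water extract of Tibetan tea to drink (high-fat tea), a high-fat diet with water (high-fat water), chow with the tea extract (chow tea) and chow with water (chow water), each kept up for 10 weeks. Tibetan tea is a fermented dark tea. The sources used here do not give the strain, sex or age of the mice, the fat depot or the dose of the extract. Each group is described as 5 mice assigned at random, and the libraries were made from poly-A RNA with a kit that keeps strand. A library held 53047057 to 93314761 reads in genes, and all 10 enzymes were among the 21306 genes that passed the filter on low counts.

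Leucine, isoleucine and valine are the branched-chain amino acids. In mitochondria the aminotransferase Bcat2 turns them reversibly into branched-chain 2-oxoacids, which the branched-chain 2-oxoacid dehydrogenase complex then commits to breakdown. Separate enzymes carry the leucine, isoleucine and valine skeletons on to acetyl-CoA, acetoacetate, propionyl-CoA or succinyl-CoA. Mature fat cells run this pathway and use its carbon for making lipid, and its activity in fat is known to be lower in obese rodents and people.

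Under the high-fat diet without tea, 6 of the 10 enzymes fell relative to chow, and none rose. Of all genes tested, 7.11% were called lower and 8.06% higher in this comparison, by edgeR's quasi-likelihood test at a Benjamini-Hochberg adjusted p below 0.05. The enzymes that fell were Hsd17b10, Aldh6a1, Bcat2, Dbt, Bckdha and Acadsb. With tea under the high-fat diet, 5 of the 10 rose relative to water and none fell, against 2.06% of all genes called higher and 2.3% called lower. These were Hsd17b10, Aldh6a1, Ppm1k, Bckdha and Dbt. The 2 groups did not overlap at all for 3 enzymes in high-fat water against chow water (Bcat2, Dbt and Hsd17b10, all lower), as for 5.59% of all genes in that direction. In high-fat tea against high-fat water they did not overlap for 4 (Bckdha, Ppm1k, Hsd17b10 and Aldh6a1, all higher), as for 2.37% of all genes. Levels are given as CPM, counts scaled to the library's depth. The median log2 fold change of the 10 enzymes was -0.54 for high-fat water against chow water, where that of all genes tested was -0.0025, and 0.61 for high-fat tea against high-fat water, where that of all genes was 0.02. Both comparisons use the same 5 high-fat water libraries, so their opposite signs are not independent of each other. In bulk tissue, fewer cells of a type and less RNA per cell cannot be told apart.

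The number of calls under tea changed when single mice were left out, for the enzymes and over all genes. The count of enzymes called in high-fat tea against high-fat water was 0 without high-fat water 1 or high-fat tea 3, 1 without high-fat water 2 or high-fat tea 2, 2 without high-fat water 4, and 4 or 5 without any other library of these groups. Over all genes, 928 were called in the fit reported. The number was 212 without high-fat water 1, 260 without high-fat tea 3, 312 without high-fat water 2 and 332 without high-fat tea 2. It was 650 without high-fat water 4 and 513 to 2017 without any other library of these groups. When only these 2 groups were fitted, 0 enzymes were called, with a smallest adjusted p of 0.0699, and 21 genes were called in all. For high-fat water against chow water the count of enzymes lay between 4 and 7 over the 10 fits that left out a library. Over all genes it lay between 1890 and 3445, against 3232 in the fit reported. Here and below a number after a group's name is its replicate.

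**Figure D1:**
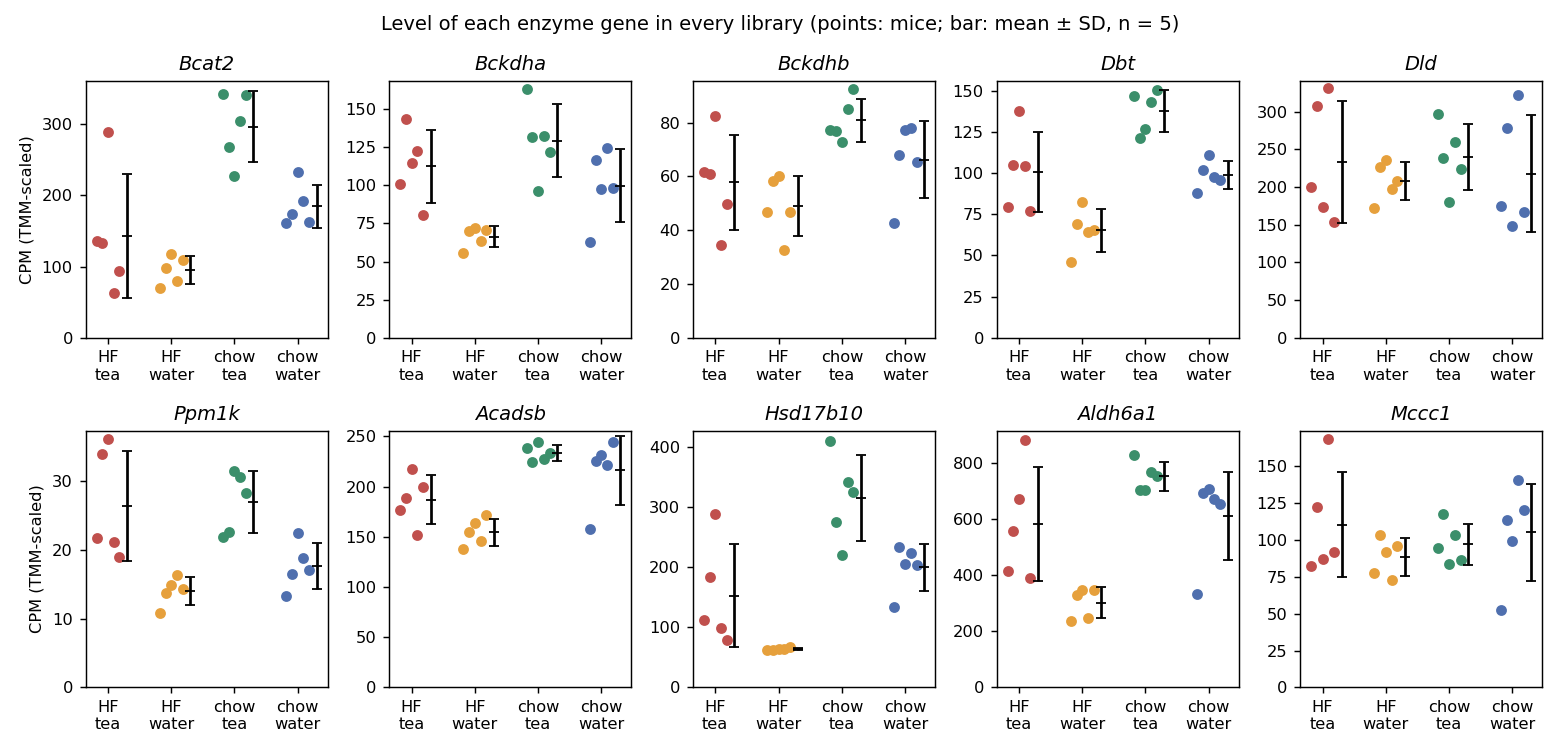
Level of each of the 10 enzyme genes in every library, as CPM on the TMM-scaled library size, with high-fat (HF) tea, high-fat water, chow tea and chow water from left to right. Points are mice and the bar beside them is the mean ± SD of 5 mice; for Hsd17b10 the high-fat water points lie between 62.6 and 67.0 CPM, below every point of the other groups.

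Some libraries held RNA of other organs. Chow water 1 had a summed level of 567449 CPM over 10 pancreas acinus genes, against at most 67.7 CPM in any other library, and it was the lowest chow water library for each of the 10 enzymes except Dld. Its fat cell list, 8 genes such as Adipoq and Plin1, summed to 10125 CPM, against 24594 to 35388 CPM in the other chow water libraries. High-fat tea 4 had 21641 CPM over 8 kidney genes and the lowest fat cell sum of all, 7669 CPM, and it held the highest Aldh6a1, Mccc1 and Dld and the lowest Bcat2, Bckdhb and Acadsb of its group. High-fat water 4 had 32168 CPM over male accessory gland genes and 12951 CPM over adrenal cortex genes. Skeletal muscle genes summed to 31338 CPM in high-fat tea 1 and 27297 CPM in high-fat water 5. Liver genes summed to at most 3365 CPM in chow water, 1679 CPM in high-fat tea, 124 CPM in high-fat water and 81.7 CPM in chow tea. For intestine genes the highest sums were 4906, 656, 4.74 and 20.7 CPM in the same order of groups. The part of these tissues in the enzymes' levels was not tested gene by gene. Without chow water 1, high-fat tea 4 and high-fat water 4, 7 enzymes were called lower in high-fat water than in chow water and 5 higher in high-fat tea than in high-fat water. Of 21409 genes tested, 4546 and 1602 were called in these comparisons, against 3232 and 928 with all libraries. A further fit left out 9 libraries, these and chow water 2, chow tea 1, high-fat water 3 and 5 and high-fat tea 1 and 3. The enzymes called then numbered 5 and 0, with 2 high-fat water and 2 high-fat tea mice left. Of 22311 genes tested, 2052 and 13 were called there. The organ RNA of chow water 2, chow tea 1, high-fat water 3 and high-fat tea 3 is not given library by library here.

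The 250 bases upstream of the annotated start are shown for Aldh6a1 and Ppm1k, which rose with tea under the high-fat diet, and for Dld, which was called in no comparison. They are RefSeq sequences of GRCm38.p6, 5′ to 3′ on the gene's strand, at chr12:84451025-84451274 (minus strand) for Aldh6a1, chr6:57535488-57535737 (minus strand) for Ppm1k and chr12:31351472-31351721 (minus strand) for Dld. The Aldh6a1 start is the annotated start farther upstream. Capitals mark 3 short motifs on either strand, picked with these sequences in view: the CCAAT box, the CACCC box bound by KLF factors and the nuclear receptor half-site AGGTCA.
Aldh6a1: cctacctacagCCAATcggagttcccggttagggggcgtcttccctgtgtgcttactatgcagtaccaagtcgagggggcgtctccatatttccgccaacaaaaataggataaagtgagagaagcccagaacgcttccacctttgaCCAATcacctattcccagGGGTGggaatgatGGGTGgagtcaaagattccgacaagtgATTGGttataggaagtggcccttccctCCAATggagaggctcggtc
Ppm1k: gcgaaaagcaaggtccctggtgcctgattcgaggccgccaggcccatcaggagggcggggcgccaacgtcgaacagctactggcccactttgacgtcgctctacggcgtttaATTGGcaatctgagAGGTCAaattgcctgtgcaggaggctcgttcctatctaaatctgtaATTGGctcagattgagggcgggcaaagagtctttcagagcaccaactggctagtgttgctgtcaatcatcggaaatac
Dld: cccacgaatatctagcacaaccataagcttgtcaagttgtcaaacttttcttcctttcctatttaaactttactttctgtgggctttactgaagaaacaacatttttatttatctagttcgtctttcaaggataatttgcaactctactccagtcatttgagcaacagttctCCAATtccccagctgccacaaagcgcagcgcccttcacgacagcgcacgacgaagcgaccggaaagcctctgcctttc
The CCAAT box stood in the window of all of these genes, the CACCC box in that of Aldh6a1 and the half-site in that of Ppm1k. Over 12 annotated starts of 9 of the enzymes, the CCAAT box was found at 7, the CACCC box at 5 and the half-site at 3. Of 32851 promoters of the same length, 33.8% held the CCAAT box, 52.0% the CACCC box and 14.0% the half-site. No marked match overlaps another one in the sequences shown, and the half-site is also part of longer nuclear receptor motifs. A match is a description of these letters and not a site of binding.

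On a per-length scale, the most abundant enzyme RNAs in chow water were Hsd17b10 with 154 ± 29.9, Bckdha with 137 ± 32.7 and Aldh6a1 with 129.7 ± 33.2 CPM per kilobase (mean ± SD, n = 5), whose ranges overlap. Dld and Bcat2 followed, with 59.2 ± 21.0 and 56.3 ± 9.13 CPM per kilobase, and these also lay within their spread of each other. Bckdhb, Acadsb and Dbt stood at 36.7 ± 7.90, 30.1 ± 4.73 and 29.5 ± 2.57 CPM per kilobase. Mccc1 at 10.2 ± 3.20 and Ppm1k at 2.92 ± 0.56 CPM per kilobase were the least abundant. In high-fat water, Hsd17b10 stood at 49.2 ± 1.42 CPM per kilobase, below the means of Bckdha (91.1 ± 9.62), Aldh6a1 (64.1 ± 11.8) and Dld (56.5 ± 6.88). Exonic bases shared with another gene were left out of the lengths. For Bckdha that left 728 of 1899 bases, so its place in this order rests on that choice.

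Bcat2, the mitochondrial aminotransferase, lies on chromosome 7 at 45219577 to 45239135 on the plus strand of GRCm39. It had 136, 132, 289.7, 63.3 and 94.0 CPM in high-fat tea and 70.3, 97.8, 118, 80.4 and 109 CPM in high-fat water. The chow libraries had 343, 268, 227, 305 and 341 CPM with tea and 161, 174, 233, 192 and 163 CPM with water. Every high-fat water library lay below every chow water library, while high-fat tea spread from below to above the high-fat water range, with high-fat tea 3 alone far above the rest. In high-fat water against chow water Bcat2 fell by 0.96 on the log2 scale (SE 0.29, adjusted p = 0.0328, edgeR), the log2 fold change being -0.96. That call was lost without any of chow water 2, 3 and 4 and high-fat water 1, 2 and 4, with log2 fold changes of -0.99 to -0.86 and adjusted p of 0.0557 to 0.0876. In high-fat tea against high-fat water its log2 fold change was 0.59 (SE 0.29, adjusted p = 0.223) and did not pass the test. Without high-fat tea 3 it was 0.16 (adjusted p = 0.725). Exons of Bcat2 share 15.95% of their bases with 0610005C13Rik on the opposite strand, where reads are counted for neither gene by the counting tool's default.

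The cytosolic aminotransferase Bcat1, which carries out the same reaction outside mitochondria, moved the other way. It had 2.56, 3.43, 2.36, 1.16 and 5.21 CPM in high-fat tea and 14.8, 9.66, 8.98, 7.55 and 8.02 CPM in high-fat water. With chow it had 1.24, 1.45, 0.863, 0.878 and 0.645 CPM in tea drinkers and 0.912, 1.77, 0.730, 2.61 and 1.22 CPM in water drinkers. No high-fat water library overlapped with high-fat tea or with chow water. Bcat1 rose in high-fat water against chow water with a log2 fold change of 2.76 (SE 0.40, adjusted p = 0.000535, edgeR) and fell in high-fat tea against high-fat water with -1.74 (SE 0.39, adjusted p = 0.0208, edgeR). The second call was lost without high-fat water 1 (-1.54, adjusted p = 0.0662) and without high-fat tea 3 (-1.67, adjusted p = 0.0576). Beside it, of 10 macrophage genes, 4 rose in high-fat water against chow water (Adgre1, Cd68, Trem2 and Gpnmb) and 2 fell in high-fat tea against high-fat water (Trem2 and Gpnmb). Over all genes, 8.06% were called higher in the first comparison and 2.3% lower in the second. The summed level of the macrophage list was 567 to 2111 CPM in high-fat tea, 1541 to 3998 CPM in high-fat water, 972 to 1898 CPM in chow tea and 537 to 1972 CPM in chow water. Its part in the Bcat1 values was not tested.

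The dehydrogenase complex is built from an E1 decarboxylase of the subunits Bckdha and Bckdhb, the E2 acyltransferase Dbt and the E3 dehydrogenase Dld, which also serves the pyruvate and 2-oxoglutarate dehydrogenase complexes. Bckdha, on chromosome 7 at 25329371 to 25358406 (minus strand, GRCm39), had 101, 144, 114, 123 and 80.5 CPM in high-fat tea and 55.4, 70.1, 72.1, 63.2 and 70.6 CPM in high-fat water. It had 163, 132, 96.5, 133 and 122 CPM in chow tea and 62.6, 116, 97.5, 124 and 98.0 CPM in chow water. All high-fat tea libraries exceeded all high-fat water libraries, and only chow water 1 of the chow libraries lay inside the high-fat water range. The log2 fold change was -0.59 in high-fat water against chow water (SE 0.18, adjusted p = 0.0331, edgeR) and 0.76 in high-fat tea against high-fat water (SE 0.18, adjusted p = 0.0256, edgeR). The fall was not called without any of chow water 2, 3 and 4 and high-fat water 1, 2, 4 and 5 (-0.61 to -0.50, adjusted p 0.0505 to 0.0887). The rise was not called without any of high-fat water 1, 2 and 4 and high-fat tea 2 and 3 (0.66 to 0.78, adjusted p 0.0514 to 0.0770). Exons of Bckdha share 61.66% of their bases with B3gnt8 on the opposite strand, so its reads come mainly from the other 728 of 1899 exonic bases and its level is less certain than that of its partners.

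Dbt, on chromosome 3 at 116306719 to 116343630 (plus strand, GRCm39), was counted on exons that no other gene shares. It had 79.5, 105, 138, 105 and 77.0 CPM in high-fat tea and 46.1, 68.9, 82.7, 63.9 and 65.2 CPM in high-fat water. The levels were 147, 122, 127, 143 and 151 CPM in chow tea and 87.7, 102, 111, 97.7 and 95.9 CPM in chow water. High-fat water lay wholly below chow water, chow water wholly below chow tea, and the high-fat tea libraries overlapped the top of the high-fat water range. Dbt fell in high-fat water against chow water by 0.60 on the log2 scale (SE 0.15, adjusted p = 0.0160, edgeR), and the call held in all 10 fits that left out a library (adjusted p 0.0108 to 0.0457). It rose in high-fat tea against high-fat water with a log2 fold change of 0.62 (SE 0.15, adjusted p = 0.0309, edgeR). That call was lost without any of high-fat water 1, 2, 4 and 5 and high-fat tea 2 and 3, with log2 fold changes of 0.49 to 0.64 and adjusted p of 0.0527 to 0.0868.

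The other subunits of the complex did not pass the test in any comparison. Bckdhb, on chromosome 9 at 83807198 to 84006293, ranged over 34.5 to 82.3 CPM in high-fat tea, 32.6 to 60.2 CPM in high-fat water, 72.6 to 92.5 CPM in chow tea and 42.7 to 78.0 CPM in chow water. Its log2 fold change was -0.44 in high-fat water against chow water (adjusted p = 0.159, edgeR) and 0.24 in high-fat tea against high-fat water (adjusted p = 0.522, edgeR). Without chow water 1 the first of these was -0.61 and passed (adjusted p = 0.0492). Dld, on chromosome 12 at 31381276 to 31401452, ranged over 154 to 331 CPM in high-fat tea, 172 to 236 CPM in high-fat water, 179.6 to 296 CPM in chow tea and 148 to 322 CPM in chow water, all overlapping. Its log2 fold changes were -0.07 (95% interval -0.57 to 0.44) and 0.16 (-0.34 to 0.67) in the same comparisons. In high-fat water against chow water, where 7.11% of all genes fell, 1 of 6 other subunits of the pyruvate and 2-oxoglutarate dehydrogenases fell. This was Pdha1, a pyruvate dehydrogenase subunit, with a log2 fold change of -1.17 (SE 0.35, adjusted p = 0.0340, edgeR), which without chow water 4 was -0.76 (adjusted p = 0.116). It also lost the call without chow water 2 and high-fat water 1, 2 and 4, and none of the 6 passed in high-fat tea against high-fat water.

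**Figure D2:**
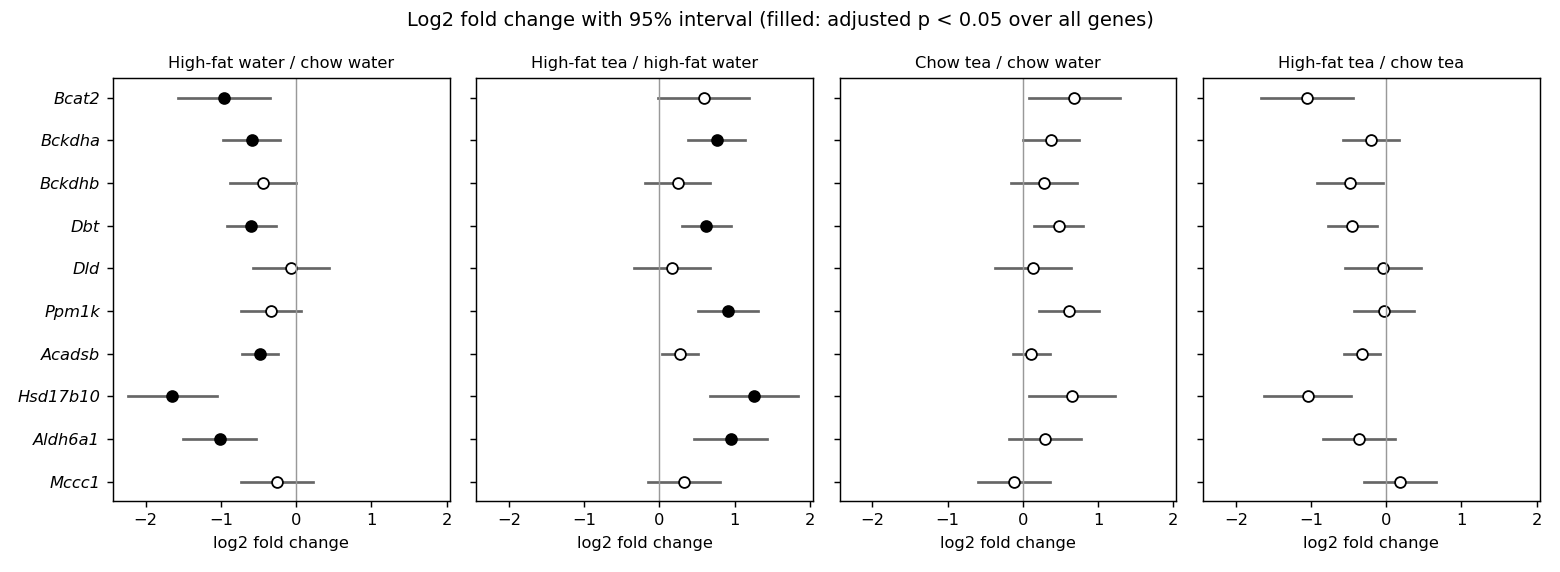
Log2 fold change of each of the 10 enzymes (points) with its 95% interval (lines) in the 4 comparisons between groups; filled points passed an adjusted p of 0.05 over all genes tested. In high-fat water against chow water all 10 points lie below 0, and in high-fat tea against high-fat water all 10 lie above it, with 6 and 5 of them filled.

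Ppm1k, the mitochondrial phosphatase that switches the complex on by removing phosphate from Bckdha, lies on chromosome 6 at 57483487 to 57512453 (minus strand, GRCm39). It had 21.7, 33.9, 36.0, 21.1 and 18.9 CPM in high-fat tea and 10.8, 13.7, 14.9, 16.3 and 14.3 CPM in high-fat water. With chow it had 21.8, 22.5, 31.4, 30.6 and 28.2 CPM in tea drinkers and 13.2, 16.5, 22.3, 18.8 and 17.0 CPM in water drinkers. Every mouse given tea with the high-fat diet exceeded every mouse given water with it, and the high-fat water and chow water ranges overlapped. The log2 fold change in high-fat tea against high-fat water was 0.91 (SE 0.19, adjusted p = 0.0161, edgeR), a level 1.88 times that of high-fat water. The call was lost without high-fat water 1 (0.83, adjusted p = 0.0527) and without high-fat tea 3 (0.77, adjusted p = 0.0511). In high-fat water against chow water Ppm1k had a log2 fold change of -0.33 (SE 0.19, adjusted p = 0.246) and did not pass. Bckdk, the kinase that opposes Ppm1k, passed in neither comparison. Its log2 fold change was 0.34 in high-fat tea against high-fat water (adjusted p = 0.251, edgeR) and -0.46 in high-fat water against chow water (adjusted p = 0.0798, edgeR).

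Hsd17b10, on chromosome X at 150784841 to 150787438 (plus strand, GRCm39), oxidises a hydroxyacyl-CoA in isoleucine breakdown and is also a subunit of mitochondrial RNase P. Its RNA counts were 113, 183, 289, 99.1 and 79.4 CPM in high-fat tea and 62.7, 62.5, 64.1, 63.1 and 67.0 CPM in high-fat water. They were 409, 275, 221, 342 and 326 CPM in chow tea and 134, 233, 205, 223 and 204 CPM in chow water. High-fat water lay below every other library of the study and varied little, with a coefficient of variation of 2.88%, against 56.0% in high-fat tea, 22.6% in chow tea and 19.4% in chow water. The level in high-fat water was 0.320 times that in chow water, a log2 fold change of -1.64 (SE 0.28, adjusted p = 0.00133, edgeR). This call held in all 10 fits that left out a library, with log2 fold changes of -1.80 to -1.60. The level in high-fat tea was 2.39 times that in high-fat water, a log2 fold change of 1.26 (SE 0.27, adjusted p = 0.0190, edgeR). Without high-fat tea 3, the highest library of that group, the log2 fold change was 0.89 (adjusted p = 0.0517). The call was also lost without high-fat water 1 and 2 and high-fat tea 2, at log2 fold changes of 1.18 to 1.25 and adjusted p of 0.0503 to 0.0551.

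Acadsb, the acyl-CoA dehydrogenase of an earlier isoleucine step, lies on chromosome 7 at 131012330 to 131050673 (plus strand, GRCm39). It had 177, 189, 218, 152 and 199.8 CPM in high-fat tea and 138, 155, 163, 146 and 172 CPM in high-fat water. It had 238, 225, 244, 227 and 233 CPM in chow tea and 157, 226, 231, 221 and 245 CPM in chow water. Chow tea was the tightest group, and chow water 1 was the only chow library inside the high-fat water range. Acadsb fell in high-fat water against chow water by 0.48 on the log2 scale (SE 0.11, adjusted p = 0.0103, edgeR), and without chow water 1 the log2 fold change was -0.62 (adjusted p = 0.000673). The call held in all 10 fits that left out a library. In high-fat tea against high-fat water its log2 fold change was 0.27 (SE 0.11, adjusted p = 0.156).

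Aldh6a1, the methylmalonate semialdehyde dehydrogenase of valine breakdown, lies on chromosome 12 at 84477491 to 84497778 (minus strand, GRCm39), and 18.64% of its exonic bases are shared with Bbof1 on the opposite strand. It had 416, 555, 671, 881 and 388 CPM in high-fat tea and 237, 329, 348, 246 and 348 CPM in high-fat water. It had 829, 704, 702, 767 and 752 CPM in chow tea and 333, 692, 705, 669 and 652 CPM in chow water. High-fat tea lay wholly above high-fat water, and of the chow libraries only chow water 1 lay inside the high-fat water range. Aldh6a1 fell in high-fat water against chow water with a log2 fold change of -1.02 (SE 0.23, adjusted p = 0.00762, edgeR), and the call held in all 10 fits that left out a library (-1.22 to -0.94). It rose in high-fat tea against high-fat water with a log2 fold change of 0.95 (SE 0.23, adjusted p = 0.0277, edgeR). Without high-fat tea 4, the library with kidney RNA, that value was 0.75 (adjusted p = 0.0554). The call was also lost without any of high-fat water 1, 2 and 4 and high-fat tea 2 and 3 (0.87 to 0.98, adjusted p 0.0547 to 0.0854).

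Mccc1, the biotin-carrying subunit of the carboxylase in leucine breakdown, lies on chromosome 3 at 36013461 to 36054827 (minus strand, GRCm39). It ranged over 82.4 to 168 CPM in high-fat tea, 73.0 to 103 CPM in high-fat water, 83.6 to 117 CPM in chow tea and 52.2 to 140.5 CPM in chow water. All groups overlapped, the highest library was high-fat tea 4 and the lowest was chow water 1. Its log2 fold changes were -0.25 in high-fat water against chow water (95% interval -0.73 to 0.22) and 0.32 in high-fat tea against high-fat water (-0.15 to 0.80), and neither passed the test. Its partner subunit Mccc2 fell in high-fat water against chow water with a log2 fold change of -0.70 (SE 0.19, adjusted p = 0.0196, edgeR). The Mccc2 call was lost without chow water 2 (-0.67, adjusted p = 0.0517) and without high-fat water 1 (-0.63, adjusted p = 0.0581).

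Tea and water were also compared under chow. None of the 10 enzymes was called in chow tea against chow water by edgeR, DESeq2 or limma voom, where 0.0235% of all genes were called by edgeR. Of the 21306 genes tested, edgeR called 5, DESeq2 261 and limma voom 6. At an unadjusted p below 0.05 the enzymes numbered 5 by edgeR, 4 by DESeq2 and 5 by limma voom, and 12.4% of all genes passed that level by edgeR. The log2 fold change was positive for 9 of the 10, with a median of 0.34 against -0.03 over all genes. The largest were 0.68 for Bcat2, 0.65 for Hsd17b10, 0.61 for Ppm1k and 0.48 for Dbt, with adjusted p of 0.332, 0.327, 0.215 and 0.232 (edgeR). The enzyme whose groups did not overlap was Dbt, where 1.59% of all genes had every chow tea library above every chow water library.

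Among tea drinkers, high-fat against chow also called none of the 10 enzymes by edgeR, where 0.178% of all genes were called, with 5 enzymes at an unadjusted p below 0.05 against 16.3% of all genes. DESeq2 called 2, Bcat2 with a log2 fold change of -1.05 (adjusted p = 0.0169) and Hsd17b10 with -1.04 (adjusted p = 0.0131), and limma voom called none. Of the 21306 genes tested, edgeR called 38 here, DESeq2 921 and limma voom 73. Without high-fat tea 3, edgeR called 3 enzymes, namely Bcat2 at -1.48 (adjusted p = 0.00444), Hsd17b10 at -1.41 (adjusted p = 0.00518) and Dbt at -0.59 (adjusted p = 0.0429). In that fit 390 of 21827 genes tested were called. High-fat tea 3 was the highest library of its group for Bcat2, Bckdhb, Dbt, Ppm1k, Hsd17b10 and Acadsb. The median log2 fold change of the 10 was -0.34, against 0.07 over all genes. Acadsb was the enzyme whose high-fat tea libraries all lay below the chow tea libraries, with a log2 fold change of -0.32 (adjusted p = 0.193, edgeR), where 1.59% of all genes had groups that did not overlap in that direction. Ppm1k was at 26.3 ± 7.98 CPM in high-fat tea and 26.9 ± 4.50 CPM in chow tea (SD, n = 5 each), a log2 fold change of -0.03 (95% interval -0.43 to 0.37).

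Whether the tea difference depended on diet was tested by the interaction. No enzyme was called by edgeR, DESeq2 or limma voom, where 0.0657% of all genes were called by edgeR. Of the 21306 genes tested, edgeR called 14, DESeq2 691 and limma voom 6. The numbers of enzymes at an unadjusted p below 0.05 were 0 by edgeR (15% of all genes), 1 by DESeq2 (Aldh6a1) and 0 by limma voom. The largest interaction terms were 0.65 for Aldh6a1 (95% interval -0.03 to 1.33) and 0.60 for Hsd17b10 (-0.21 to 1.41). The larger number of calls with tea under the high-fat diet than under chow is therefore not shown to be a difference between the diets.

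**Figure D3:**
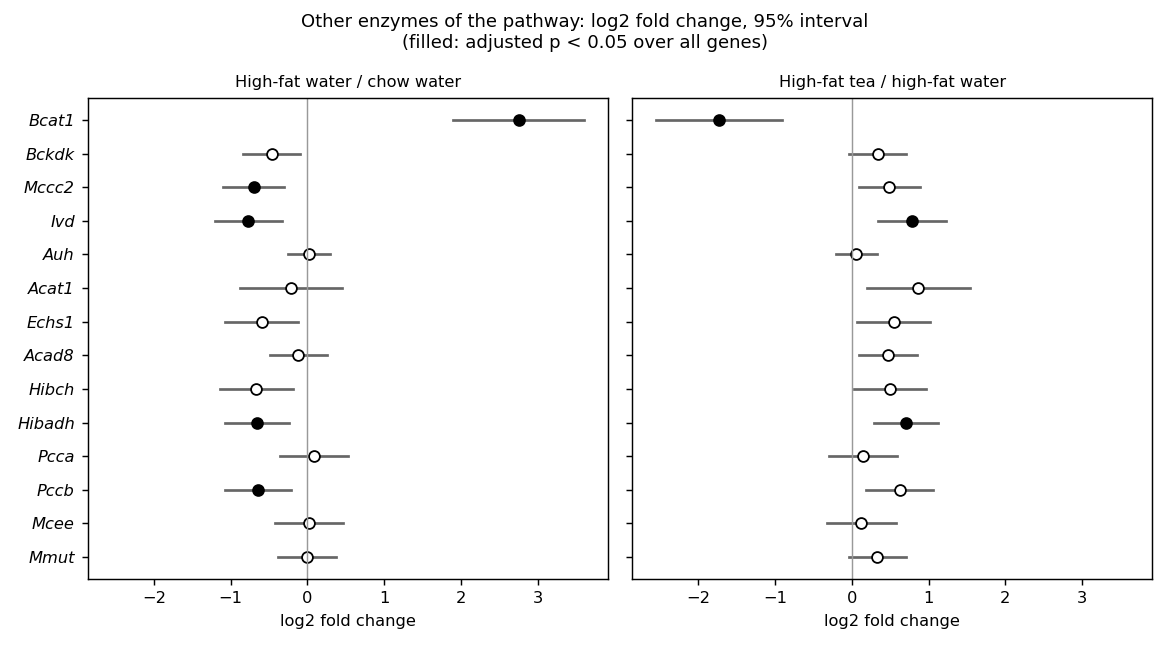
Log2 fold change with 95% interval of 14 other enzymes of the pathway in high-fat water against chow water (left) and high-fat tea against high-fat water (right); filled points passed an adjusted p of 0.05. Bcat1 stands at 2.76 on the left and -1.74 on the right, opposite to the other filled points.

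The 15 other enzymes of the pathway, a list taken from textbook steps, included 5 that fell and 1 that rose in high-fat water against chow water, with a median log2 fold change of -0.46. Among those that fell were Mccc2, Ivd, Hibadh and Pccb, whose calls were lost in 2, 2, 6 and 8 of the 10 fits that left out a library. With tea under the high-fat diet 3 rose relative to water, Ivd and Hibadh among them, and 1 fell (Bcat1), with a median of 0.49. The shares of all genes called lower and higher were 7.11% and 8.06% in the first comparison and 2.3% and 2.06% in the second. Ivd, the isovaleryl-CoA dehydrogenase of leucine breakdown, averaged 307 ± 88.2 CPM in high-fat tea and 178 ± 27.3 CPM in high-fat water (SD, n = 5 each). The log2 fold change of Ivd there was 0.78 (SE 0.21, adjusted p = 0.0414, edgeR), and the call was lost in 8 of the 10 fits that left out a library. Hibadh, of the valine branch, had 0.71 (SE 0.20, adjusted p = 0.0497, edgeR), lost in 9 of those 10 fits.

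Of 6 transporters of these amino acids, Slc3a2 and Slc43a1 fell in high-fat water against chow water, where 7.11% of all genes were called lower. Slc3a2, the heavy chain shared by several amino acid transporters, had a log2 fold change of -0.73 (adjusted p = 0.0361, edgeR), and Slc43a1, a carrier of large neutral amino acids, had -1.60 (adjusted p = 0.0393, edgeR). Slc43a1 rose in high-fat tea against high-fat water with 1.93 (adjusted p = 0.0400, edgeR), where 2.06% of all genes were called higher. The Slc3a2 and both Slc43a1 calls were each lost in 7 or 8 of 10 fits that left out a library. Slc25a44, the mitochondrial carrier of branched-chain amino acids, passed in neither comparison, with log2 fold changes of -0.45 (adjusted p = 0.0940) and 0.22 (adjusted p = 0.495). Without chow water 1 the first was -0.63 (adjusted p = 0.0106).

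Of 6 transcriptional regulators known to act on the pathway or on mitochondrial oxidation, 1 passed, and it did so in high-fat water against chow water. This was Klf15, a Krüppel-like factor known to regulate amino acid breakdown, and 7.11% of all genes were called lower in that comparison. Klf15 had 91.1, 73.0, 118, 86.4 and 66.8 CPM in high-fat tea and 19.2, 46.5, 54.6, 20.9 and 56.0 CPM in high-fat water. With chow it had 151, 128, 60.9, 103 and 124 CPM in tea drinkers and 153, 119.9, 133, 91.5 and 57.3 CPM in water drinkers. High-fat water lay below all libraries of the other groups. The log2 fold change was -1.49 in high-fat water against chow water (SE 0.33, adjusted p = 0.00693, edgeR). In high-fat tea against high-fat water it was 1.14 (SE 0.33, adjusted p = 0.0535, edgeR), which DESeq2 (adjusted p = 0.00843) and limma voom (adjusted p = 0.0332) called. Without high-fat water 5 (1.30, adjusted p = 0.0496) or high-fat tea 5 (1.22, adjusted p = 0.0350) edgeR called it as well. Pparg, the nuclear receptor of fat cell formation, had log2 fold changes of -0.63 (adjusted p = 0.209) and 0.26 (adjusted p = 0.693) and did not pass. Without chow water 1, high-fat tea 4 and high-fat water 4, the first was -0.72 and passed (adjusted p = 0.00313, edgeR).

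The summed level of the 10 enzymes was 1232 to 2098 CPM in high-fat tea, 916 to 1251 CPM in high-fat water, 1984 to 2619 CPM in chow tea and 1219 to 2087 CPM in chow water. Of 36 nuclear genes of the respiratory chain, 2 passed, both lower, in high-fat water against chow water, where 7.11% of all genes were called lower, with a median log2 fold change of -0.40, and none passed in high-fat tea against high-fat water, where 2.06% of all genes were called higher, with a median of 0.46. None of the 8 fat cell genes passed in either comparison, and their medians were 0.07 and -0.17. The fat cell sum ranged over 7669 to 33712 CPM in high-fat tea, 16755 to 29725 CPM in high-fat water, 26195 to 32809 CPM in chow tea and 10125 to 35388 CPM in chow water. With library sizes taken from the fat cell list the enzymes called were 1 in high-fat water against chow water and 1 in high-fat tea against high-fat water, Hsd17b10 in both. With library sizes taken from the respiratory chain list they were 1 and 0, the 1 being Hsd17b10. The median log2 fold change of all genes stood at -0.22 and 0.50 under the fat cell scaling, with that of the enzymes at -0.64 and 1.14, in the 2 comparisons. Under the respiratory chain scaling it stood at 0.39 and -0.37, with that of the enzymes at -0.15 and 0.26. Calls over all genes were also fewer, 777 and 157 under the fat cell scaling and 1226 and 21 under the respiratory chain scaling, against 3232 and 928 with TMM.

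**Figure D4:**
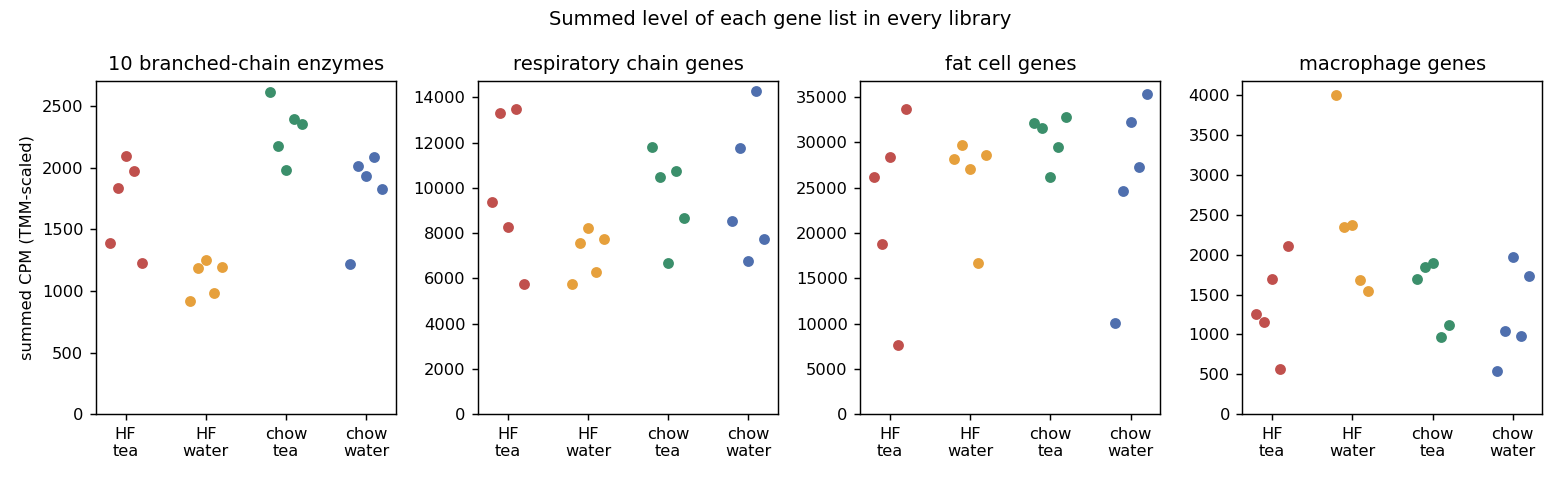
Summed level in CPM on the TMM-scaled library size of the 10 enzymes, 36 respiratory chain genes, 8 fat cell genes and 10 macrophage genes in every library (points), with high-fat (HF) tea, high-fat water, chow tea and chow water from left to right in each panel. The enzymes' sums in high-fat water lie at 916 to 1251 CPM, while the fat cell sums of all 4 groups overlap.

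Across mice the enzymes varied together. Over the 20 libraries the 45 pairs had a median Pearson correlation of log2 CPM of 0.64, with a range of -0.05 to 0.91, and after each group's mean was removed the median was 0.47, with a range of -0.21 to 0.79. These are descriptions without a test, and the pairs share libraries, depth and tissue make-up. By the correlation over all libraries, Bcat2 and Hsd17b10 were each other's closest partners (0.91, and 0.78 within groups). So were Bckdha and Aldh6a1 (0.90, and 0.76 within groups) and Dld and Mccc1 (0.62, and 0.64 within groups). Over all libraries, Dbt and Acadsb were closest to Hsd17b10 (0.90 and 0.86), Bckdhb to Bcat2 (0.88) and Ppm1k to Dbt (0.81). Dld, the shared subunit, had correlations of 0.05 with Bcat2, 0.08 with Bckdhb, 0.02 with Acadsb and 0.60 with Bckdha. Within groups the partners differed. Those closest to each other there were Aldh6a1 and Mccc1 (0.79), Bcat2 and Bckdhb (0.78) and Bckdha and Dld (0.77).

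**Figure D5:**
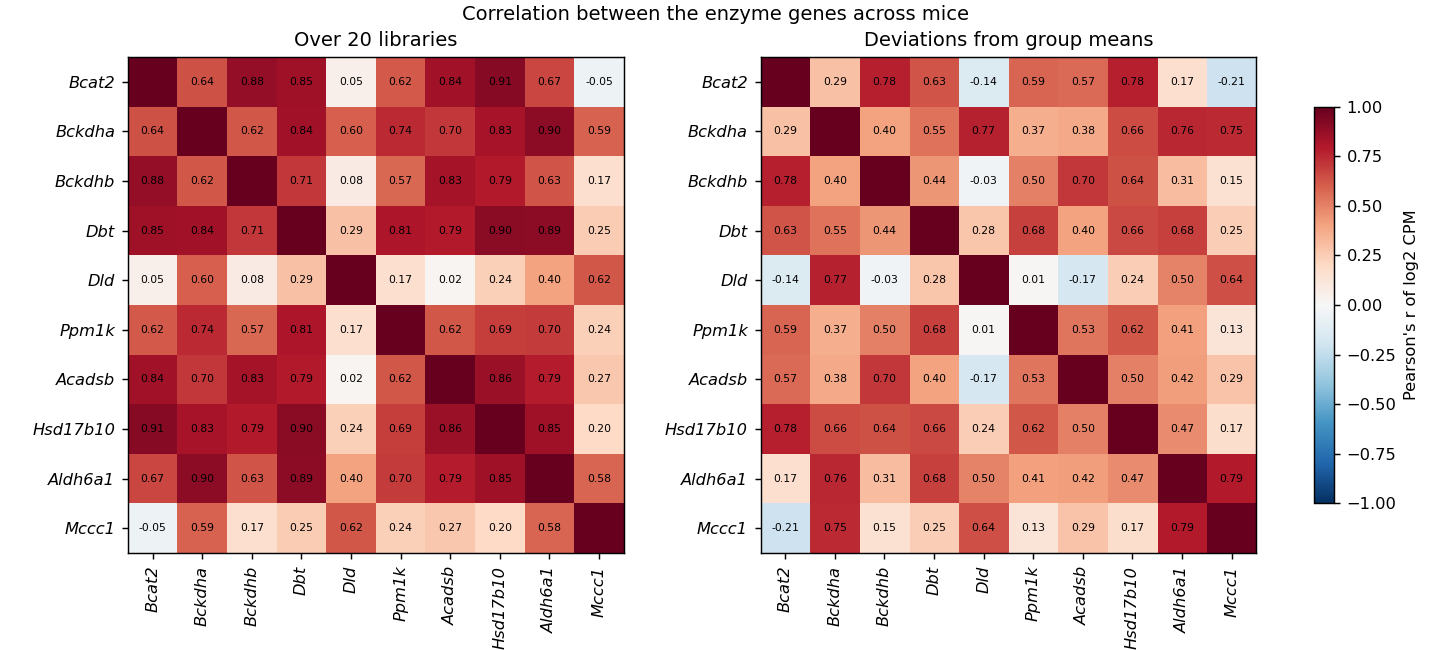
Pearson correlation of log2 CPM between each pair of the 10 enzymes over 20 libraries (left) and after removal of group means (right), coloured from -1 to 1. Dld and Mccc1 have the palest rows, and the highest value off the diagonal on the left is 0.91, between Bcat2 and Hsd17b10.

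Among 5292 other genes with a mean log2 CPM of at least 5, those most like the enzymes' mean standardised level over the 20 libraries were Ralgapa2 (Pearson correlation 0.96), Fmo1 (0.96), Aldh2 (0.95), S100a1 (0.95) and Isca1 (0.95). Within groups the correlations were 0.88, 0.90, 0.91, 0.93 and 0.83 in the same order. Aldh2 is the mitochondrial aldehyde dehydrogenase of acetaldehyde, and Isca1 takes part in iron-sulfur cluster assembly. The likeness is a description over these libraries.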

How the data were processed

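Per the file headers, the authors deposited raw counts, a whole number of reads for each gene, made by featureCounts 2.0.6 on the GENCODE vM32 annotation of GRCm39 at exons and summed by gene name. Per the submitters' processing notes, fastp 0.23.2 and HISAT2 2.2.1 were also used, and these notes name mm10 instead of GRCm39. Gene positions printed here are those of the deposited tables, counted from 1, and promoter sequences are RefSeq's of GRCm38.p6, which are not joined to them by position. The featureCounts command in the headers sets neither a strand nor a fragment option. Accordingly 68.1% to 72.2% of low counts were even in each library, and a fragment mostly entered as 2 reads. By that tool's default, reads over exons of 2 genes enter neither.

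From the deposited counts, filterByExpr of edgeR 4.0.16 (R 4.3.3; minimum count 10, minimum total 15) kept 21306 genes and removed 35499. Scaling was by TMM. The quasi-likelihood F test was fitted to the means of 4 groups over all 20 libraries with no covariate (16 residual degrees of freedom), and p-values were adjusted over all genes tested by the Benjamini-Hochberg method, with a call at an adjusted p below 0.05. CPM are on the TMM-scaled library size. The common biological coefficient of variation was 0.593, and depth was 53047057 to 93314761 reads in genes. In 40 within-group library pairs chi-square per gene was at least 68.7, so no library repeats another. The p-values reflect variation among mice, including that of dissection and library preparation. The labels give no batch. The fit was tested on simulated counts.

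The enzymes, the other lists and the alternatives were chosen with earlier results of these data known. Named genes are all 10 enzymes, up to 4 called genes of lowest p from each of 4 related lists, Bckdk, Bcat1, Klf15, Pparg and Slc25a44 whatever their result, and the 5 genes most like the enzymes' mean. For 1 gene of these lists no values are given here, though the counts include it. Alternatives were DESeq2 1.42.0 and voom in limma 3.58.1, RLE size factors, no filter on low counts, only the groups compared, the replicate number as a block, leaving out libraries with RNA of other organs, library sizes from 2 gene lists, and leaving out each library.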

Additional observations from a re-analysis of the deposited data

Results flagged for a closer look

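In chow water, Aldh6a1 was at 333.4 CPM in replicate 1, where the nearest of the other 4 libraries was at 651.8 CPM, a gap of 0.856 of the group's whole range. Acadsb in the same library was at 157.3 CPM, where the nearest was at 221.1 CPM, a gap of 0.73 of the range. Both gaps exceed the 95% critical value of Dixon's test for 5 samples, 0.71. Among 40 sets of 1 enzyme in 1 group, chance flags about 1 in 20. This library is the one with 567449 CPM of pancreas acinus genes and 10125 CPM of fat cell genes, and the part of that in the 2 values was not tested. Without it, the log2 fold change in high-fat water against chow water was -1.22 for Aldh6a1 and -0.62 for Acadsb, both called by edgeR.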

How the results depend on the processing

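Of 1530 log2 fold changes of named genes under alternatives, 1238 kept their direction and their side of the threshold, 202 lost the call, 18 gained it and 72 changed sign, none of the 72 being called in either fit. In high-fat water against chow water, where 6 enzymes were called, the count was 1 with library sizes from the fat cell list, 1 with those from the respiratory chain list, and 4 to 7 over the fits without 1 library. In high-fat tea against high-fat water, where 5 were called, it was 0 with only the groups compared (21 genes called in all). It was also 0 without 9 libraries with RNA of other organs (fewer samples, 13 genes called in all). The count was 1 with the fat cell list, 0 with the respiratory chain list, and 0 to 5 without 1 library. The median log2 fold change of the 10 enzymes there was 0.62, 0.55, 1.14 and 0.26 under the first 4 of these settings, against 0.61 in the fit reported. In high-fat tea against chow tea, where none was called, it was 2 with DESeq2 (921 genes called in all) and 0 to 3 without 1 library. In the other 2 comparisons it was 0 under every alternative run. The words in brackets describe the fits, and the cause of these changes was not tested.

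No label says that the replicate numbers pair the mice. Of 30 pairs of libraries with the same number, 9 had a correlation of deviations from the group means over 0.1 (range -0.26 to 0.45). These correlations run over all genes tested, RNA of other organs included, and cannot decide whether the numbers mark a litter, batch or day. With the replicate block, 6 enzymes were called in high-fat water against chow water, 5 in high-fat tea against high-fat water and 0 in each other comparison. Changes of sign follow as log2 fold changes. The median of all genes stood at -0.52 for chow tea against chow water, 0.82 for high-fat tea against chow tea and 1.03 for the interaction under the fat cell list, and at -0.06, 0.09 and -0.31 under the respiratory chain list, which put it at 0.39 for high-fat water against chow water and -0.37 for high-fat tea against high-fat water. With the replicate block they were, for high-fat water against chow water Dld at 0.014, and for the interaction Dld at -0.11.

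With limma voom they were, for high-fat water against chow water Dld at 0.0052, and for the interaction Dld at -0.100. Without the smaller set of 3 libraries with RNA of other organs, Dld changed sign to -0.015 for high-fat tea against high-fat water. For high-fat tea against chow tea the changes in that fit were Ppm1k at 0.039 and Mccc1 at -0.014. For the interaction they were Bcat2 at 0.084, Bckdhb at 0.099 and Dld at -0.082. Without 9 libraries with RNA of other organs the changes of sign were, for chow tea against chow water Acadsb at -0.018, and for high-fat tea against chow tea Dld at 0.023. With library sizes from the fat cell list they were, for chow tea against chow water Bckdha at -0.0083, Bckdhb at -0.082, Dld at -0.34, Aldh6a1 at -0.025 and Acadsb at -0.28, and for high-fat tea against chow tea Bckdha at 0.68, Bckdhb at 0.12, Dbt at 0.37, Dld at 0.99, Ppm1k at 0.68, Aldh6a1 at 0.66 and Acadsb at 0.38, and for the interaction Bcat2 at 0.62 and Bckdhb at 0.70. With library sizes from the respiratory chain list they were, for high-fat water against chow water Dld at 0.42, Ppm1k at 0.024 and Mccc1 at 0.16, and for high-fat tea against high-fat water Bckdhb at -0.092, Dld at -0.33, Acadsb at -0.059, Mccc1 at -0.13, Bckdk at -0.080, Slc25a44 at -0.13 and Pparg at -0.041, and for the interaction Bckdha at -0.025, Dbt at -0.19, Dld at -0.52, Ppm1k at -0.098, Acadsb at -0.15 and Mccc1 at -0.0076.

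For high-fat water against chow water the values over the fits without 1 library ran, among the enzymes that changed sign, Dld -0.18 to 0.12. For chow tea against chow water the values over the fits without 1 library ran, among the enzymes that changed sign, Acadsb -0.0044 to 0.16 and Mccc1 -0.31 to 0.011. For high-fat tea against chow tea the values over the fits without 1 library ran, among the enzymes that changed sign, Dld -0.20 to 0.077, Ppm1k -0.17 to 0.065 and Mccc1 -0.014 to 0.28. For the interaction the values over the fits without 1 library ran, among the enzymes that changed sign, Bcat2 -0.52 to 0.092, Bckdhb -0.21 to 0.13 and Dld -0.16 to 0.15.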
